A study of Homo sapiens with 12 samples.

Results

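Gene deserts are long stretches of a chromosome with no protein-coding gene, and 9568 summits of open chromatin in HT1080 cells lay in them. HT1080 is an established human fibrosarcoma line. Open chromatin was measured by ATAC-seq, where a transposase cuts accessible DNA and tags it for sequencing, and a summit is the position of highest fragment coverage within an accessible interval. Members were chosen by position and by the deposited −log10 q (the peak caller's false discovery rate for the summit): a summit was kept when it lay on chromosomes 1 to 22, in an interval of at most 10000 bp, with a deposited −log10 q of at least 10, outside every annotated gene and more than 50000 bp from the nearest end of a protein-coding gene. The 9568 desert summits made up 5.09% of the 188019 summits listed for the series and fell in 7825 intervals that covered 6.83 Mb.

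Single cells had been embedded in type I collagen from rat tail, in gels of 0.3, 1 or 1.7 mg/mL, and the series asks how migration in collagen of different density relates to chromatin accessibility. Each concentration had 4 libraries, 12 in all. All 3 groups were treated with 20 µM GM6001, a broad inhibitor of matrix metalloproteinases, and the migration time was 48 h, so no group without the inhibitor entered these data. The list analysed here held 1 set of values for the whole series and no value for a single library or concentration: differences between concentrations, the spread between replicates and the depth per library were not analysed here, and every comparison below is a description of this list without a test.

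Gene deserts hold few coding exons, and many of them are known to carry distal enhancers, which regulate a gene from far along the chromosome through DNA looping. Deserts beside genes for developmental transcription factors, such as SOX9, are known for such enhancers. Other deserts surround centromeres, where long arrays of repeated satellite DNA are found, and many long noncoding RNAs (lncRNAs) start inside deserts. AP-1, a dimer of FOS and JUN family proteins, is a factor known to bind distal enhancers in fibroblast-like and tumour cells.

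Some desert summits sat on the start of a lncRNA gene, and there the local sequence can be shown. The following 7 windows, each 250 bases before to 50 bases after a RefSeq gene start (GRCh38.p14), are printed because they show what DNA lay under such summits: the first 4 held the strongest summits by enrichment among windows with the AP-1 letters TGANTCA, and the last 3 the strongest among windows without them, in either case away from the long intervals described below. Capitals mark every match, on either strand, to the 12 motifs searched, whose letters TGANTCA for AP-1, GGAATG for TEAD, TGTGGTT for RUNX, CCGGAA for ETS, TTGCNNAA for CEBP, TGTTTAC for FOX, ATTGG for NFY, GGGCGG for SP/KLF, AGATAA for GATA and TGATGCAA for CEBP/ATF factors, with a CTCF core of 12 bases and an NFI palindrome of 15 bases besides. Each sequence runs 5′ to 3′ along its gene.
LOC105374243: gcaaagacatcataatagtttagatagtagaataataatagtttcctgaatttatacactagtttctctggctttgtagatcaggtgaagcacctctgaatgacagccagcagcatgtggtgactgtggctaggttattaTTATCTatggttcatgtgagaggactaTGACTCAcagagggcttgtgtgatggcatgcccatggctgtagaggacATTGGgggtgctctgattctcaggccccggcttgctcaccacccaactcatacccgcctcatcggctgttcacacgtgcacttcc
LOC105370135: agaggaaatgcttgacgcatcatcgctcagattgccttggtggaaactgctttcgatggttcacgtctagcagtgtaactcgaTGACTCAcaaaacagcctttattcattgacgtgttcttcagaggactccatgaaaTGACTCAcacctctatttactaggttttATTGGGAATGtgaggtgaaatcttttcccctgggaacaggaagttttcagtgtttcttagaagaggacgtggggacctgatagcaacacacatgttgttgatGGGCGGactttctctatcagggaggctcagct
LOC124905093: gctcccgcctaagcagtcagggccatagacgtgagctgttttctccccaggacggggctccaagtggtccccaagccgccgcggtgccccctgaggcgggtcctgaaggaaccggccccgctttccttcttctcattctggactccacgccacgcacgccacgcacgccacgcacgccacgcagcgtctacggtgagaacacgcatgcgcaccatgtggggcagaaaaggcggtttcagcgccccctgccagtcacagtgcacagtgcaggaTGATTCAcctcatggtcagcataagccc
LOC124903079: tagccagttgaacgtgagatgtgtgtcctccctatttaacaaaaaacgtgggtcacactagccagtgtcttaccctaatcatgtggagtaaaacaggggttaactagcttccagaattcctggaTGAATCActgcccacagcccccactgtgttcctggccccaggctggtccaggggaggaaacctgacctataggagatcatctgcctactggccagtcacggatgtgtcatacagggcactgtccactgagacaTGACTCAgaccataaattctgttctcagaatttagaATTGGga
LOC105377134: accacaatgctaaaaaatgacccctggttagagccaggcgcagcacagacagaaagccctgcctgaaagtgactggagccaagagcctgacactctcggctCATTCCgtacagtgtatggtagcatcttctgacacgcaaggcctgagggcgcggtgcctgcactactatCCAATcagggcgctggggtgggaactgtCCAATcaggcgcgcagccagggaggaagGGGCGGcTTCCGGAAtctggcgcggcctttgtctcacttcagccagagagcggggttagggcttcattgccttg
LOC105372699: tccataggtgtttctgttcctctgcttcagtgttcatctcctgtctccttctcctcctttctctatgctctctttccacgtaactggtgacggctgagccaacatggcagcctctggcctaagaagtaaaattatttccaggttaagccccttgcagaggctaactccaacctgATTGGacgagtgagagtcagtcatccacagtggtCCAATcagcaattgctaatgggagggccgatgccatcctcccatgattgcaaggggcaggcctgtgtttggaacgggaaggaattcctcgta
PURPL: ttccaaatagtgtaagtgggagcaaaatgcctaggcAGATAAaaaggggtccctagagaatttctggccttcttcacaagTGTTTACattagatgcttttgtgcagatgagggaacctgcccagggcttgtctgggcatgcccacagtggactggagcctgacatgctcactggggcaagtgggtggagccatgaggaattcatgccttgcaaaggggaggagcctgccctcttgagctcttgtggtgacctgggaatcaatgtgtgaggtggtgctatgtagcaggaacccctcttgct

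LOC105374243 lay on the minus strand at chr3:182182713-182183012, in the desert beside SOX2, a transcription factor of stem and neural progenitor cells. Its summit was 3 bp upstream of the gene start and 468 kb from SOX2, and its enrichment was 17.5 (the deposited ratio of fragments at the summit to the local background), at a pileup of 994 overlapping fragments. LOC105370135, on the plus strand at chr13:28574762-28575061, held 2 matches to the AP-1 letters and a summit 79.7 kb from FLT1, a receptor for vascular endothelial growth factor, with an enrichment of 16.1. LOC124905093, on the minus strand at chr22:25447944-25448243, had an enrichment of 15.4 and 23 CG dinucleotides. LOC124903079, on the minus strand at chr12:114933533-114933832, lay 250 kb from TBX3, a T-box transcription factor of limb and heart development, and reached an enrichment of 14.9 at a pileup of 1076.

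Of the windows without the AP-1 letters, LOC105377134 (plus strand, chr21:14027182-14027481) had an enrichment of 17.0 and matches to TEAD, ETS, NFY and SP/KLF letters. LOC105372699 (plus strand, chr20:60750182-60750481) had an enrichment of 16.6 and matches to the NFY letters alone. PURPL, a lncRNA known as a target of p53 (plus strand, chr5:27472042-27472341), had an enrichment of 16.6, matches to FOX and GATA letters and 0 CG dinucleotides. These 7 windows thus ranged from 0 to 23 CG dinucleotides and shared no single motif.

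The summits divided first by what lay around them. The list held 722 autosomal intervals longer than 10000 bp, which the selection left out, and 2187 desert summits (22.9%, exact binomial 95% interval 22.02 to 23.71, counting error only) lay within 1 Mb of one. Among summits that passed the same thresholds elsewhere, the share near a long interval was 5.67% of 12340 intergenic summits within 50 kb of a coding gene, 3.56% of 28035 summits inside coding genes, 7.68% of 8206 inside noncoding genes and 4.45% of 11884 within 1000 bp of a coding gene end. The share was thus highest among the desert summits. Desert length itself also lay near long intervals more often, 108 of 772 Mb. For intergenic length within 50 kb it was 17.2 of 408 Mb, and for coding gene bodies 29.3 of 1169 Mb. Noncoding gene bodies had 20.3 of 390 Mb and coding gene ends 3.33 of 68.9 Mb.

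The desert summits near long intervals were low and crowded. Their median enrichment was 3.66 (95% interval of the median 3.56 to 3.71, quartiles 3.05 and 5.63) and their median pileup 84 fragments. Only 17.6% of them were the single summit of their interval, and 73.3% belonged to a run of 3 or more desert summits with gaps of at most 10 kb. The 7381 desert summits farther away had a median enrichment of 6.06 (5.96 to 6.17, quartiles 4.10 and 9.24) and a median pileup of 146. Of these, 84.8% were single summits and 13.1% lay in such runs.

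Away from long intervals, desert summits were about as high as other distal summits. Median enrichment was 5.49 for intergenic summits within 50 kb, 5.63 inside coding genes and 5.89 inside noncoding genes, each also over 1 Mb from a long interval, and 11.0 within 1000 bp of coding gene ends. The deposited q chose all of these summits, so the medians describe the selected summits and support no difference between positions. Of the 7381, 1573 (21.3%) had an enrichment of at least 10, beside 24.4% of the 70033 autosomal summits that passed the thresholds, a share close to that background.

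**Figure D1:**
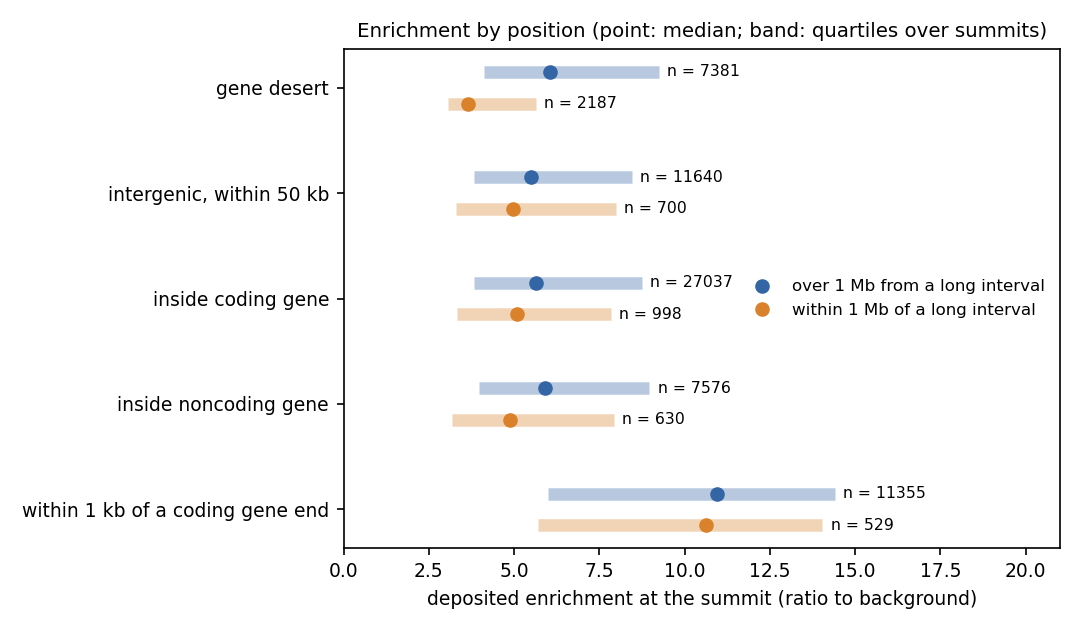
Deposited enrichment (horizontal axis, a ratio to background) for summits of 5 positions, split by whether an interval over 10 kb lay within 1 Mb. Points are medians, bands run from the lower to the upper quartile over summits, and n is the number of summits. The desert median falls from 6.06 to 3.66 beside long intervals, while summits within 1 kb of coding gene ends stay near 11.0 and 10.6.

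The edges of the selection were as follows. Of 105599 autosomal summits in intervals of at most 10000 bp, 66.3% had a −log10 q of at least 10, and of the 18096 among them in desert positions 52.9% did. Just inside the distance limit were summits 50008 bp from TXNDC16 (enrichment 7.13) and from VGLL2 (3.42), and just outside it were summits 50000 bp from PLAAT1 (3.10) and 49998 bp from PLEKHG3 (5.46). The lowest −log10 q kept was 10.01, beside NAMPT, at 2.75-fold enrichment and a pileup of 59, and the highest left out was 9.97, beside FOXD4L6, with 2.61 and 65. The longest interval kept, 9980 bp beside LOC124903767 on chromosome 16, included summits of 2.80, 5.25 and 7.21. The shortest left out for its length, 10058 bp between EPHA3 and PROS1, included summits of 2.86, 3.47 and 3.52.

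Desert summits were sparse along the DNA. The eligible length, outside every gene and over 50 kb from coding genes, was 772 Mb, or 27.5% of the autosomal span covered by the tables, and it held 12.4 summits per Mb (exact Poisson 95% interval 12.1 to 12.6, counting error only). Intergenic DNA within 50 kb of a coding gene held 30.2 per Mb, coding gene bodies 24.0, noncoding gene bodies 21.03 and the 1000 bp on either side of coding gene ends 172. Deserts over 1 Mb from a long interval held 11.1 per Mb (10.9 to 11.4), and the desert length nearer to one held 20.2. The nearer length includes the long intervals themselves, in which no desert summit could be counted.

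The number of summits fell with distance from coding genes, and their height did not follow it. Over 1 Mb from long intervals, summits 50 to 100 kb from a coding gene numbered 20.2 per Mb (19.46 to 20.98), and those at 100 to 200 kb 15.0. The density was 9.18 per Mb at 200 to 500 kb, 4.79 at 500 to 1000 kb and 2.54 (2.204 to 2.914) beyond 1000 kb. Median enrichment over the same 5 distance ranges was 6.10, 5.91, 6.14, 6.14 and 6.03. The part of summits with a local background above the lowest of the list (20.3 fragments) went from 63.8% at 50 to 100 kb to 30.4% beyond 1000 kb.

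Within 1 Mb of long intervals this decline was weaker, with 27.5 summits per Mb at 50 to 100 kb and 18.3 beyond 1000 kb. Here too the length includes the long intervals themselves. Of the 1242 desert summits over 1000 kb from a coding gene, 1038 (83.6%) lay within 1 Mb of a long interval. The median distance to a coding gene was 173 kb over all desert summits and 133 kb without those near long intervals.

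**Figure D2:**
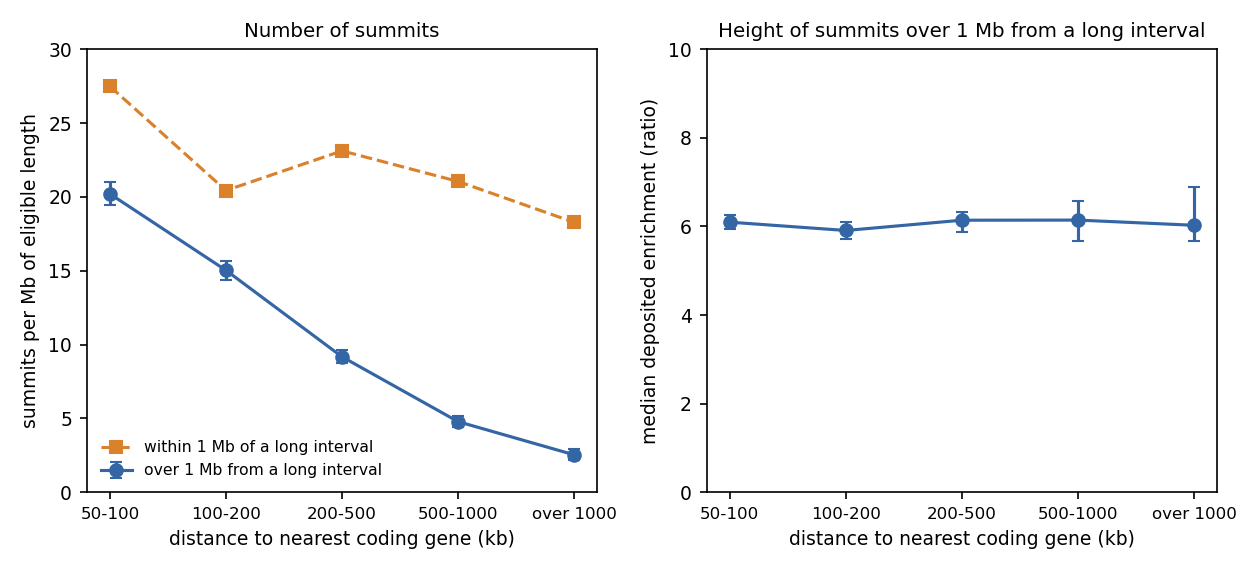
Left, desert summits per Mb of eligible length (vertical axis) in 5 ranges of distance to the nearest coding gene, with exact Poisson 95% intervals on the series over 1 Mb from long intervals; right, median deposited enrichment of that series with 95% intervals of the median. The number falls from 20.2 to 2.54 per Mb while the median height stays between 5.91 and 6.14.

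The density of desert summits differed between chromosomes, both over all desert DNA and away from long intervals. Over all desert DNA, chromosome 17 had 27.1 desert summits per Mb, chromosome 22 had 26.1, and chromosome 9 had 8.75, the lowest. Stretches of unknown sequence in the assembly count as length in these densities, and their part in the ranking was not tested. On chromosome 17, 65.5% of 388 desert summits were within 1 Mb of a long interval, and its density without that DNA was 15.1. Chromosomes 19, 21 and 22 had 50.9%, 54.1% and 52.1% of their desert summits in such zones. Chromosomes 3, 4, 10, 16 and 18 had 34.9% to 40%, whereas chromosomes 6, 8 and 11 had 1.69%, 1.92% and 2.32%. Without these zones, chromosomes 22 (28.4 per Mb) and 20 (18.2) were highest and chromosomes 16 (7.18) and 4 (7.82) lowest. The eligible length away from long intervals was 3.94 Mb on chromosome 22, so its density rests on 112 summits.

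**Figure D3:**
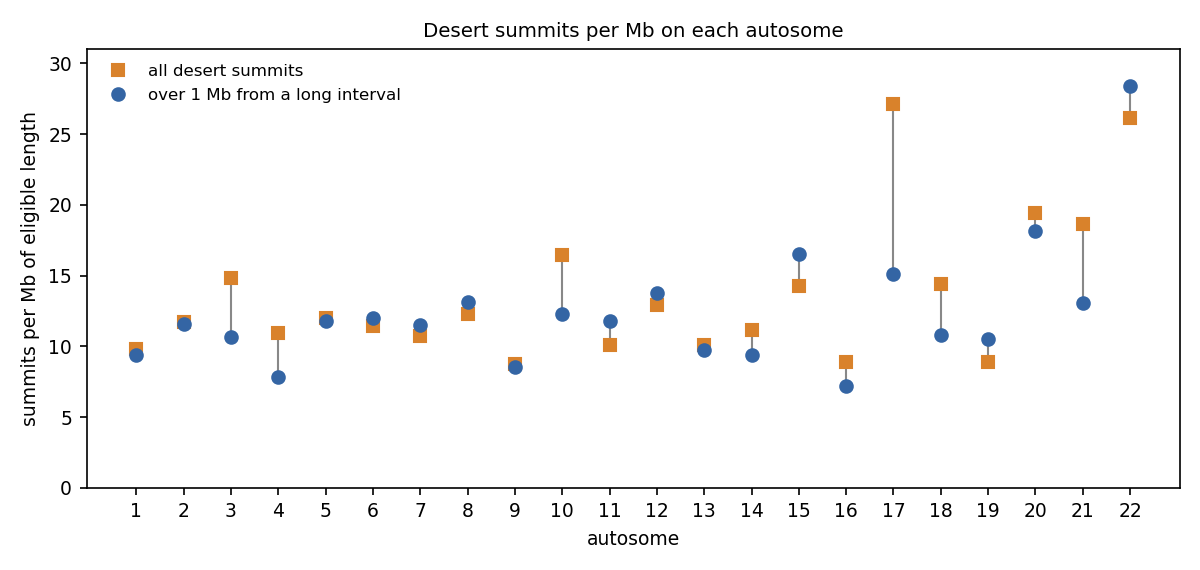
Desert summits per Mb of eligible length (vertical axis) on each autosome, over all desert DNA (squares) and over 1 Mb from long intervals (circles), joined by a line. Chromosome 17 moves from 27.1 to 15.1 and chromosome 22 from 26.1 to 28.4.

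The deserts with most summits were those around long intervals. A desert is counted here as the stretch between 2 neighbouring protein-coding genes. The desert between EPHA3 (an ephrin receptor) and PROS1 (the anticoagulant protein S) on chromosome 3 held 245 summits at a median spacing of 1.07 kb, and their median enrichment was 3.24. KCNJ18 to WSB1 on chromosome 17 held 232, CWH43 to DCUN1D4 on chromosome 4 held 207, and ZNF37A to ZNF33B on chromosome 10 and ANKRD30B to ROCK1 on chromosome 18 held 170 each. The remaining 5 of the 10 fullest deserts held 115 (ZNF337 to LOC124904970), 114 (the start of chromosome 22 to OR11H1), 73 (LOC102723475 to LOC101927345), 64 (LOC124903767 to SHCBP1) and 63 (the start of chromosome 14 to OR11H12). All 10 held at least 1 interval over 10 kb. In all, 45 of the 2507 deserts held a long interval, and 2037 desert summits lay in those 45.

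These zones also held the 5 largest runs of summits. A run of 31 summits in 6 intervals spanned 43.7 kb at chr4:50003886-50047549, with enrichments from 2.86 to 4.27, and a run of 27 in 7 intervals spanned 53.2 kb at chr3:90868787-90921941, with enrichments from 2.86 to 5.96. Runs of 19 on chromosome 14 and of 18 on chromosome 9 lay in 2 and 1 intervals. The run of 20 on chromosome 21, chr21:8219681-8251581, was of another kind: its enrichments were 1.19 to 4.16 but its median pileup was 4509 fragments.

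That run adjoined RNA45SN2, a gene for the precursor of ribosomal RNA, which is present in many tandem copies in human cells. The highest pileup of any desert summit, 23606 fragments, lay there at chr21:8249494-8252366, over a local background of 5951, an enrichment of 3.97. The desert around it, LOC102723475 to LOC101927345, had a median pileup of 1947 over its 73 summits. How reads from repeated copies were placed is not given in the sources used here, and its part in these pileups was not tested.

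Other very high pileups lay both near long intervals and away from them. A summit at chr1:125176023-125183637 reached 18844 fragments with an enrichment of 14.9, 5.84 kb from a long interval. One at chr5:10034-11777, close to the start of chromosome 5 and far from any long interval, reached 13871 with 17.6. At chr17:43295601-43300802, 224 bp from the snRNA gene LOC124904144 and again within 1 Mb of a long interval, the pileup was 10984. Pileups of at least 1000 were found for 172 (7.86%) of the desert summits near long intervals and 155 (2.10%) of the others.

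The highest enrichments were split between the zones and sites away from them. Of the 10 desert summits of highest enrichment, 8 lay within 1 Mb of a long interval. The strongest, at chr17:22520682-22522196, reached an enrichment of 32.1 at a pileup of 13779 and lay 817 kb from KCNJ18 and 692 bp from MTCYBP13, a pseudogene copy of a mitochondrial gene. Its interval's second summit, 262 bp from the same pseudogene, had 4.72. Another 7 desert summits lay within 1000 bp of pseudogenes of mitochondrial genes, and their enrichments ran from 2.56 (beside MTND3P22) to 10.2 (beside MTCO1P40), so the value of 32.1 stood alone among the 9.

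The other 7 near long intervals were on chromosomes 10, 17 and 22. Chromosome 10 held 4 of them between ZNF37A and ZNF33B, with enrichments of 23.6, 22.7, 21.8 and 20.8, each 1978 to 2118 kb from a coding gene and within 27.5 kb of a long interval. Chromosome 17 held 2, with 24.3 and 20.9, between KCNJ18 and WSB1, and chromosome 22 held 1, with 22.97 and a pileup of 2399.

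Summits over 1 Mb from long intervals made up the rest of the strongest group. The summit at chr22:18730144-18730796, 94.9 kb from FAM246B, reached 24.9 at a pileup of 1686. That at chr20:9015563-9016147, 52.9 kb from PLCB4 (a phospholipase C), had 20.4 and 1516. Next among summits over 1 Mb from long intervals came one at chr22:11973760-11974538 (19.9), one at chr3:106765340-106765719 between CCDC54 and CBLB, an E3 ubiquitin ligase (19.3), one at chr5:53211677-53212174 between MOCS2 and FST, which encodes the activin antagonist follistatin (19.2), and one at chr6:92945633-92946187, 294 kb from the ephrin receptor EPHA7 (19.2). Each of these 6 was the only summit of its interval, and the intervals were 380 to 779 bp long. The one 94.9 kb from FAM246B still had another desert summit close by, at chr22:18733785, with an enrichment of 6.12.

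The most remote summits lay on chromosome 22. All 10 farthest from a coding gene were in the stretch before OR11H1, 4472 to 4845 kb from it, with enrichments of 2.31 to 8.96. No coding gene of the table lies between them and the start of the chromosome. Among summits over 1 Mb from long intervals and not on chromosome 22, the farthest were 4 on chromosome 15, 3214 to 3215 kb from LOC124903442 and in 1 interval. Then came 3 on chromosome 4 between ARAP2 and PCDH7, a protocadherin: they lay 2258 to 2296 kb from ARAP2, with enrichments of 9.71, 11.8 and 3.33.

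Among deserts with no long interval within 1 Mb, summits were spread thinly. These 2369 deserts held 7270 summits, a median of 2 each, and 725 (30.6%) held none. Over these deserts the eligible length and the number of summits had a Spearman correlation of 0.69, and 144 deserts with at least 1000 kb of eligible length had a median of 4.54 summits per Mb (quartiles 2.75 and 6.62). The fullest was HTR2A to SUCLA2 on chromosome 13, chr13:46898083-47942655, with 28 summits, enrichments of 2.76 to 14.2 and 7 summits of at least 10. HTR2A is a serotonin receptor and SUCLA2 a mitochondrial succinyl-CoA ligase subunit, and 12 of the 28 were nearer to HTR2A.

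The desert between HAS2, which makes the matrix polysaccharide hyaluronan, and ZHX2, a transcriptional repressor, held 27 summits at chr8:121641441-122780378. The 6 within 171 kb of HAS2 had enrichments of 12.4, 17.8, 4.83, 12.2, 6.20 and 10.5. Between 252 and 401 kb from HAS2, 5 summits had values of 3.47 to 4.97. The next 3 lay 493, 526 and 546 kb from HAS2 with 12.4, 10.4 and 3.71. Another 3 lay 671, 677 and 684 kb from it with 12.8, 16.1 and 3.10. The 10 between 927 and 1053 kb ran from 3.14 to 15.1, with 2 of at least 10. The 10 summits of at least 10 in this desert thus stood among lower ones along its length.

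RUNX1, a transcription factor of blood development, and SETD4, a lysine methyltransferase, bounded a desert with 23 summits at chr21:35049303-36034540 and a median enrichment of 8.35. Its desert summits lay 63.9 to 254 kb and again 565 to 891 kb from RUNX1, with none between. Only 628 kb of its 985 kb was eligible. Summits inside noncoding genes were left out by choice, so the stretch between may hold open sites not counted here. The first group held 10 summits with a highest value of 13.4, and the second 13 with a highest value of 14.6. Both groups thus held strong and weak summits.

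KCNJ2, a potassium channel, and SOX9, a transcription factor of cartilage and testis development, bounded a desert of 1941 kb with 17 summits at chr17:70180045-72121019. Its median enrichment was 10.0 and its strongest summit, 892 kb from KCNJ2 and 1049 kb from SOX9, had 19.1 and a pileup of 907. The 6 nearest SOX9 lay 117 to 220 kb from it, with enrichments of 8.99, 10.2, 10.0, 13.3, 10.9 and 7.79. On the other side of SOX9, the shorter desert to SLC39A11 held 11 summits with a median of 4.64 and 1 of at least 10. The long side had the higher and the short side the more closely spaced summits, with median spacings of 59.0 and 5.83 kb.

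**Figure D4:**
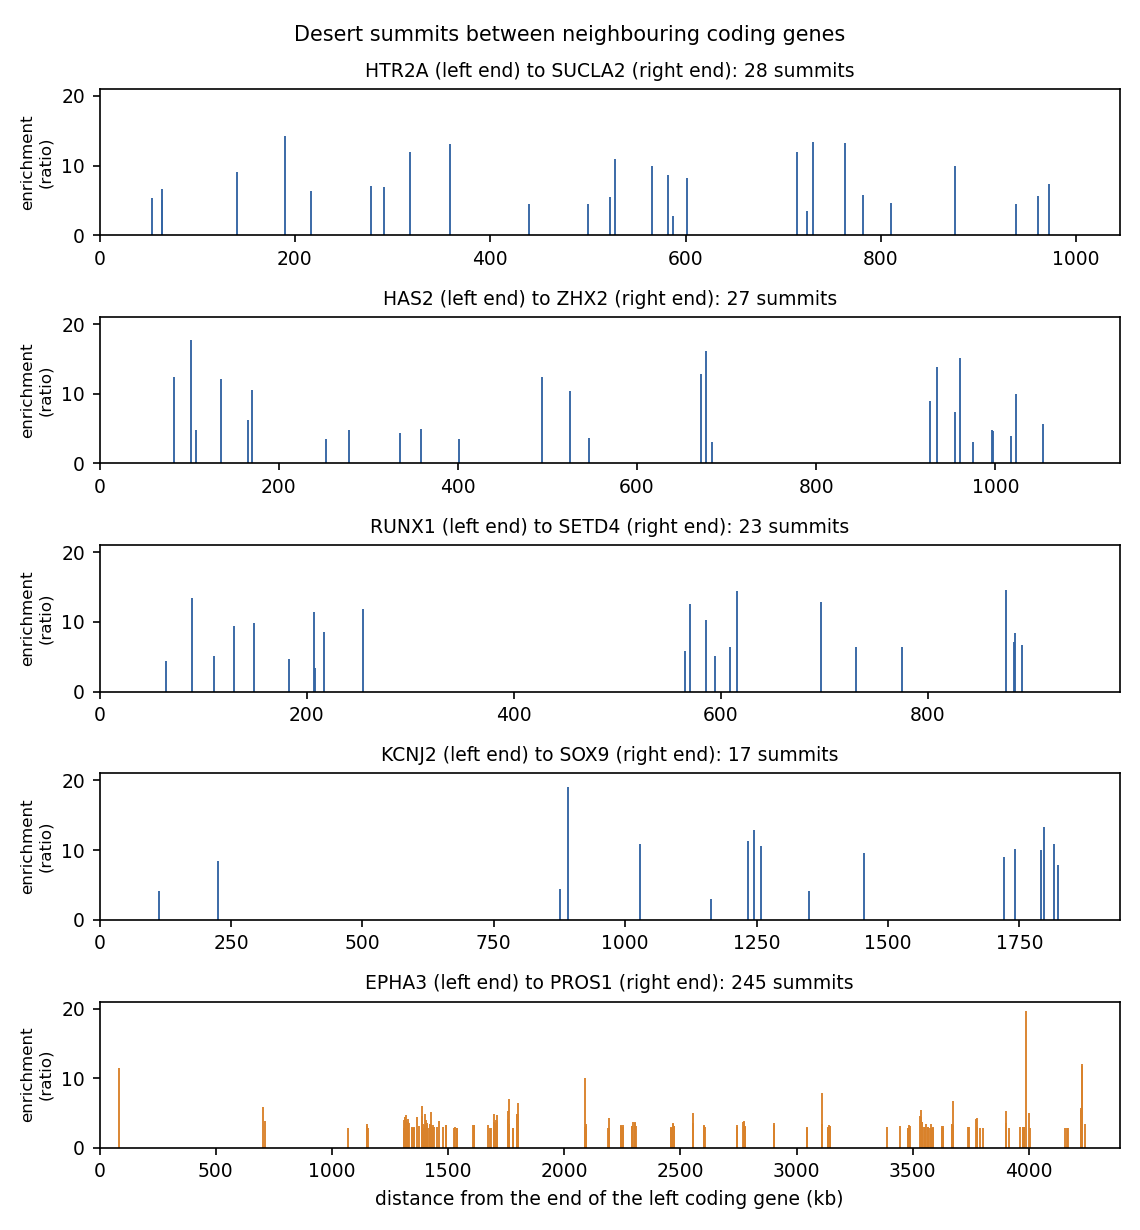
Deposited enrichment (vertical axis, ratio) of each desert summit against its distance in kb from the end of the left coding gene, for 5 deserts; each line is 1 summit and each panel spans the whole desert. The first 4 deserts have no long interval within 1 Mb and hold 28, 27, 23 and 17 summits, several of them at least 10, whereas EPHA3 to PROS1 holds 245, mostly near its median of 3.24.

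Other full deserts away from long intervals were LOC105372073 to PIK3C3 on chromosome 18 with 26 summits, FOXL1 to C16orf95 on chromosome 16 and GALR1 to SALL3 on chromosome 18 with 24 each, and PLXNA2 to CAMK1G, CRYBA4 to MN1 and PTPRU to MATN1 with 23 each. They differed in density, since PIK3C3's desert had 3199 kb of eligible length (8.13 per Mb) and FOXL1's 571 kb (42.0 per Mb). DUSP4, a phosphatase of MAP kinases, and SARAF bounded the densest of the 10 fullest, with 22 summits in 424 kb (51.9 per Mb).

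Some long deserts were empty. GOT2 to CDH8 on chromosome 16 had 2186 kb of eligible length, SEL1L to LOC124903401 on chromosome 14 had 1812 kb, LRRC4C to API5 on chromosome 11 had 1274 kb, POM121L12 to VSTM2A on chromosome 7 had 1119 kb and DOK5 to CBLN4 on chromosome 20 had 1067 kb, each with 0 desert summits. CTNNA2 to SUCLG1 on chromosome 2, with 2951 kb, held 1 summit, of enrichment 6.10. In contrast PTPRU to MATN1, the densest with at least 1000 kb, held 21.9 per Mb. A desert without a summit here may still hold summits below the thresholds or inside noncoding genes.

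Runs of summits away from long intervals held fewer summits. The fullest had 13 in 2 intervals at chr3:197384817-197394840, beside DLG1, a scaffold protein of cell junctions, with enrichments of 2.74 to 15.0. The next had 12 in 3 intervals at chr6:170213843-170227801, beside DLL1, a ligand of Notch receptors, with 2.78 to 7.62. The most intervals in 1 run was 7, at chr1:221793584-221826996 beside DUSP10, a phosphatase of stress-activated MAP kinases, with 8 summits of 2.91, 2.91, 6.52, 11.7, 4.24, 9.24, 9.20 and 3.07. A run of 6 at chr3:71982794-72018587 beside PROK2 had values of 12.5, 11.4, 13.1, 3.64, 5.18 and 3.66. At chr10:110398812-110426142, between SMNDC1 and DUSP5, 7 summits in 6 intervals had enrichments of 3.65 to 10.9. The run at chr6:26735286-26766390, beside ZNF322 in the region of the histone genes, had 5 summits of 10.4, 15.1, 12.1, 14.9 and 11.0, all at least 10.

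That last run stood among transfer RNA genes. Of 114 autosomal tRNA genes over 50 kb from a coding gene, 52 (45.6%) had a desert summit within 1000 bp. Chromosome 6 held 66 of the 114, and 26 of these 66 had such a summit. For 48 desert summits the nearest noncoding gene within 1000 bp was a tRNA gene, 26 of them on chromosome 6 and 16 on chromosome 1. They lay a median of 79 bp outside the tRNA gene, and 41 of 48 were within 200 bp. Their median enrichment was 7.03, with a range of 1.68 to 15.1, and 13 reached 10. The highest, beside the methionine tRNA gene TRM-CAT4-2 at chr6:26743204-26743833, had 15.1 and a pileup of 1048, and the next, beside the isoleucine tRNA gene TRI-AAT6-1, had 14.9 and 352. Near-identical tRNA copies make the placement of single reads uncertain, and neighbouring tRNA genes can share 1 summit.

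The starts of lncRNA genes held more summits than the DNA beside them. Of 3220 lncRNA genes with a start over 50 kb from coding genes and over 1 Mb from a long interval, 98 (3.04%) had a desert summit in the 300 bp window, in all 94 summits. Chromosome 8 was not analysed here for gene starts. Counted by the distance of each summit to its nearest lncRNA start, 94 summits lay 1 to 250 bp upstream, or 376 per kb of distance. There were 76.0 per kb between 250 and 500 bp, 52.0 between 500 and 1000 bp, 42.0 between 1000 and 2000 bp and 36.4 between 5000 and 10000 bp. Since desert summits lie outside genes by choice, the downstream side could not be compared. The 94 summits in windows had a median enrichment of 7.75 (6.004 to 9.256) and the 6776 outside them on the same chromosomes 6.05 (5.92 to 6.14).

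Matches to AP-1 letters were common in those windows. TGANTCA occurred in 40 of 98 windows with a desert summit (40.8%) and in 12.1% of 3021 desert lncRNA windows in which the list had no summit. It occurred in 10.5% of all 11145 lncRNA windows, in 11.9% of 1473 lncRNA windows nearer to or inside coding genes that held a summit of the same thresholds, in 4.64% of 6684 coding windows with such a summit and in 5.91% of all 15101 coding windows. The windows with a desert summit had a median GC content of 49.3% and the desert windows without a summit 42.7%. For the 1473 lncRNA windows and the 6684 coding windows with a summit, the median was 66.7% each. Among desert windows of 40 to 60% GC, with and without a summit, the shares were 45.2% of 73 and 12.4% of 1783. The other sets were not limited to this range. Counting 1 window for each of the 94 summits, 39 had the letters, a median of 28 bp from the summit to the middle of the nearest match, and in 29 of 39 the distance was at most 50 bp. Summit and match lay in the same 300 bp window, which limits this distance. No other motif or position was measured beside it. The first 4 windows printed above are among the 40.

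The other motifs gave a mixed picture. SP/KLF letters occurred in 25.5% of desert windows with a summit, 7.15% of those without and 76.4% of coding windows with a summit. For ETS letters the shares were 15.3%, 4.30% and 35.2%, and for CTCF letters, the insulator protein's motif, 6.12%, 1.19% and 3.26%. TEAD letters were in 24.5%, 17.6% and 9.44%, RUNX letters in 8.16%, 6.26% and 2.71%, and FOX letters in 6.12%, 5.83% and 1.90%. CEBP and GATA letters were less frequent with a desert summit (9.18% and 11.2%) than without (18.3% and 20.8%). These shares are not matched for GC content. Among windows of 40 to 60% GC, with and without a desert summit, CEBP letters were in 11.0% and 16.3% and GATA letters in 13.7% and 16.5%. There, SP/KLF letters were in 15.1% and 7.12%, and TEAD letters in 30.1% and 19.9%. Without the limit on GC, the NFY pentamer was in 51.0% and 39.1%, the CEBP/ATF letters in 1.02% and 1.49%, and the NFI letters in neither set. Also without that limit, the median number of CG dinucleotides was 5 with a desert summit, 2 without and 28 in coding windows with a summit. A match is a stretch of letters and does not show that a factor was bound, and 5 summits lay in windows of both strands, which share sequence.

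**Figure D5:**
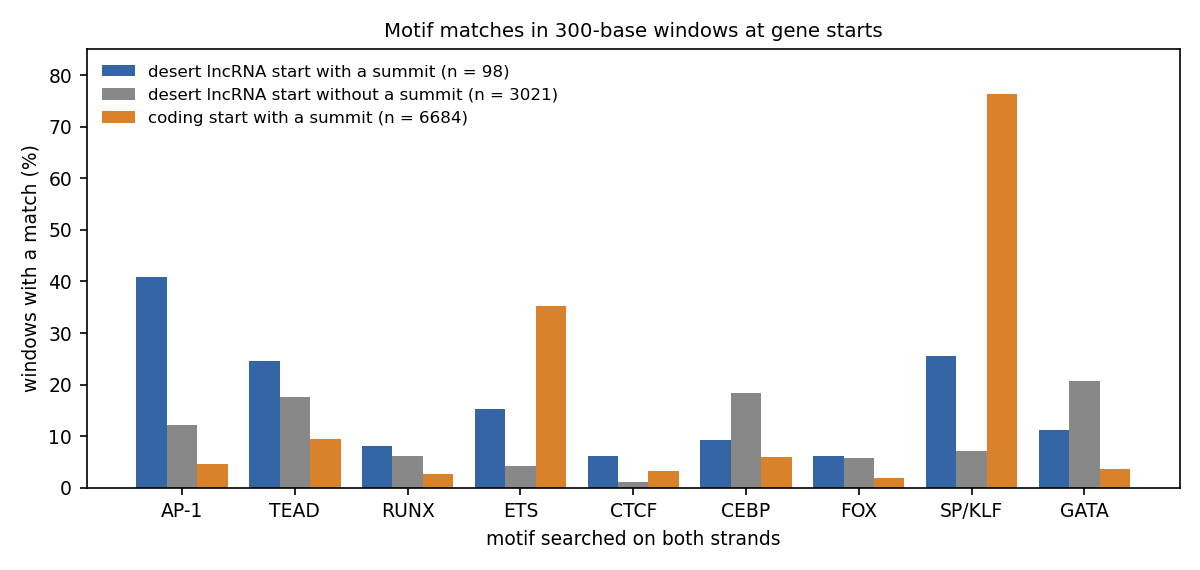
Percent of 300-base windows at gene starts with at least 1 match (vertical axis) for 9 of the 12 motifs, in 98 desert lncRNA windows with a summit, 3021 without and 6684 coding windows with a summit. AP-1 matches stand at 40.8%, 12.1% and 4.64%, and SP/KLF matches at 25.5%, 7.15% and 76.4%. The windows are not matched for GC content.

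Which coding genes the summits neighboured was described with 4 gene lists, assigning each summit over 1 Mb from long intervals to its nearest coding gene. Of 3837 coding genes that bound such desert DNA, 2282 (59.5%) were nearest to at least 1 of the 7381 summits, and the DNA nearest to them held 11.1 summits per Mb. The genes with most were LOC107984449 and HAS2 with 23 each, and LOC124904970, SOX9 and TENM4 with 20. JAG1, a ligand of Notch receptors, and TLE1, a Groucho family corepressor, had 18 each. DLL1, another Notch ligand, had 17, of which 12 were in the run described above. LOC124904970 had its 20 in 7 intervals, 9 of them in 1 run, whereas the 23 of HAS2 lay in 23 intervals.

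Developmental transcription factors had 69 of 86 genes (80.2%) with a summit and 13.2 per Mb (11.9 to 14.7), 357 summits in all with a median enrichment of 5.78. The desert DNA nearest to these 86 genes was 27.0 Mb, beside 664 Mb for all 3837 genes. Shares of genes with a summit, for this list and the others, were not adjusted for the length per gene. SOX9 had 20, between 66.2 and 912 kb away, with a median of 9.53 and 9 of at least 10. SALL3, a zinc finger factor, had 16 with a median of 3.89 and 1 of at least 10. ETS1 had 15, 50.6 to 539 kb away, and its strongest (14.7, at chr11:128095422-128096048) lay in the start window of the lncRNA LINC02725. Of the 17 genes of this list with 0 summits, MEIS2 and SOX5 had most DNA assigned to them, 303 and 291 kb.

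Secreted growth factors had 26 of 38 genes (68.4%) with a summit and 12.1 per Mb (9.83 to 14.6). BMP2, a bone morphogenetic protein, had 11, of which 5 were at least 10 and the strongest, at chr20:6684969-6685791, had 16.6 and a pileup of 1266. BMP7 had 8, up to 6.87. SEMA3C, a semaphorin that guides migrating cells, had 8 up to 13.1, and VEGFC, a growth factor of lymphatic vessels, 8 with a median of 10.3 and a highest value of 17.1. FGF9 and the chemokine CXCL12 had 0 summits in 464 and 447 kb.

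Genes of matrix, adhesion and cytoskeleton bounded few deserts, 23 of 50, and 14 of these (60.9%) had a summit, 29 in all and 12.7 per Mb (8.52 to 18.3). NT5E, the cell-surface nucleotidase CD73, had 5 up to 10.6. ADAMTS1, a secreted protease of the matrix, had 3 of 3.24, 3.33 and 7.82, and COL12A1, a collagen that associates with fibrils, 3 between 4.03 and 5.07. MMP16, a membrane-bound matrix metalloproteinase, had 3, the strongest of which (12.3) was 613 kb away. The integrin gene ITGA1 had 0 in 531 kb.

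Of the 4 lists, neuronal adhesion and synapse genes had the most desert DNA nearest to them and the fewest summits per Mb. Of 64 genes, 48 (75%) had a summit, 227 in all, or 4.13 per Mb (3.61 to 4.70) of 55.0 Mb, with a median enrichment of 6.38. Density fell with distance from coding genes in general, from 20.2 to 2.54 per Mb. Deserts away from long intervals with at least 1000 kb of eligible length had a median of 4.54 per Mb, close to the value here. The part of desert length in the low density of this list was not tested. TENM4, a teneurin, had 20 up to 13.6. CDH9, a cadherin, had 14, and its strongest (16.6) was the summit at the start of PURPL printed above. CDH2, which encodes N-cadherin, had 12, of which 5 were at least 10, the strongest 16.2. PCDH9, a protocadherin, had 10, up to 7.88. CDH8, LRRC4C and the glutamate receptor gene GRIK2 had 0 summits in 1959, 1709 and 1263 kb. The lists were chosen with earlier results of these data known, so these densities describe the genes and give no independent support.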

How the data were processed

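The submitters' processing notes name fastp 0.20.0, Bowtie2 2.4.3, SAMtools, deepTools 3.5.0, MACS2 2.2.7.1 and hg38, with no parameters, so read filters and the placement of repeated reads are not given in the sources used here. The authors deposited 1 peak list of 188019 summits, without library columns. Its values are, by the column layout, a score, an enrichment ratio (fold over background), a −log10 p and a −log10 q for each summit, and all are the authors' own. Depth per library is unknown, and planned comparisons between libraries had no input.

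Pileup and local background were solved from the deposited enrichment, taken as (pileup + 1)/(background + 1), and the deposited −log10 p, taken as a Poisson upper tail. This gave a whole pileup, within 0.05, for 99.96% of lines, and was tested on simulated data. Positions came from the RefSeq gene table (GRCh38.p14). Its rows run in order of start, and 676 autosomal rows (153 protein-coding) outside each chromosome's longest ordered run were taken to carry positions on other sequences and were not used. Eligible length ran from the first to the last listed position of each chromosome. Stretches of unknown sequence in the assembly were not taken out of it, so every density per Mb includes them as length. Apart from densities over 1 Mb from them, long intervals also stayed in the length, though no counted summit could lie in one. Promoter sequences came from a RefSeq table that matched 11145 of 17525 autosomal lncRNA genes. No genome sequence was used, so the planned motif search around summits was replaced by gene starts.

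Named were the 10 highest enrichments, the 10 fullest deserts, the 10 most remote summits, the 5 largest runs, the 4 genes of each list nearest to most summits and the summits at each limit. The result for 1 gene named by this rule is not reported here. The division at 1 Mb from intervals over 10 kb, the high pileups, tRNA genes, gene starts and their printed windows, the SOX9 desert, deserts, runs and summits named away from long intervals, empty deserts and genes outside the lists were chosen after values were seen. All members and lists were chosen with earlier results of these data known. Median intervals are order-statistic intervals of the median that treat summits as independent draws. They do not cover the spread of summits or any spread between replicates, since summits are not replicates. Python 3.11.15, numpy 2.4.6, scipy 1.17.1, pandas 2.3.3 and matplotlib 3.10.9 were used.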

Additional observations from a re-analysis of the deposited data

Results flagged for a closer look

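Chromosome X was outside the selection and holds a signal of the same kind. Under the same thresholds and distances, 252 summits on X lay in gene deserts, 16.0% of the 1571 X summits that passed the thresholds. Their median enrichment was 6.05 and their median pileup 143 fragments. No comparison used them.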

How the results depend on the processing

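The values as reported were 9568 summits, a median enrichment of 5.39, 13.7% of all summits that passed the thresholds, 12.4 per Mb and 26.9% in runs of 3 or more. They moved most with the thresholds. Without an added minimum of −log10 q there were 18096 summits, with a median of 2.86, a share of 17.1%, 23.4 per Mb and 52.2% in runs. With a minimum of 20, the median was 6.66, the share 12.4%, the density 9.57 per Mb and 19.1% lay in runs. Without a limit on interval length there were 68916 summits, with 4.83, 52.6%, 89.3 per Mb and 89.9% in runs, since the long intervals then entered. With a limit of 2000 bp, the values were 6.004, 11.7%, 10.1 per Mb and 12.2% in runs. Counting each interval once gave 6.01, 12.4%, 10.1 per Mb and 8.92% in runs.

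At a distance over 25000 bp the share was 18.4%, the density 14.3 per Mb and 25.7% lay in runs. Over 100000 bp the median was 5.16, the share 9.52%, the density 10.6 per Mb and 31.2% lay in runs. Barring summits inside coding genes alone, and not those inside noncoding genes, gave 5.60, 19.6% and 13.2 per Mb. Any overlap of the interval gave 13.1% and 11.9 per Mb. Eligible length without stretches overlapping a long interval gave 11.9 per Mb. Joining gaps of 5000 and 20000 bp put 19.1% and 39.8% in runs.

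Other alternatives were chosen after seeing the data. Without summits within 500000, 1000000 and 2000000 bp of a long interval, the median enrichment was 6.05, 6.06 and 6.09, the share 11.5%, 11.4% and 11.3%, the density 11.2, 11.1 and 11.1 per Mb and the part in runs 14.1%, 13.1% and 12.7%. Keeping the gene rows placed on other sequences gave 9543 summits. Causes of these shifts, beyond which summits each setting admits, were not tested.

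No paired analysis was possible because the list carries no replicate numbers or library columns. Values without single replicates and a motif search at the summits, both intended, were not run. The minimum of −log10 q limits what a missing summit shows: the lowest pileup among desert summits was 59 fragments, and a summit with 58 was left out at a −log10 q of 9.95. Depth per library is unknown, so what it limits was not tested.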
